A study of Mus musculus with 2 samples.

Results

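Osteopontin is a secreted phosphoprotein of bone matrix and inflamed tissue, encoded by Spp1, and it was followed here together with 6 genes for its receptors. The 7 genes were Spp1, Cd44, Itgav, Itgb1, Itgb3, Itgb5 and Itga4, out of 27998 genes in the tables, and all 7 had UMIs (unique molecular identifiers, each standing for 1 captured transcript) in both libraries. They were chosen by their symbols with earlier results of these data known, and Spp1 was selected on its measured level in high-fat macrophages, so the values of Spp1 between the diets are given as a description. The cells are the stromal vascular fraction of epididymal white fat, which is what remains of the tissue once the adipocytes are removed. They came from male wild-type C57BL/6J mice of 18 weeks, on normal chow (NCD) or on a high-fat diet (HFD) that had lasted 12 weeks. Each diet has 1 droplet-based library of 3' transcript ends, so no test between diets was possible, diet and library cannot be told apart, and all 95% intervals cover counting error only. The labels do not say how many mice went into a library.

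Osteopontin holds an arginine-glycine-aspartate site that is bound by integrins, which are pairs of an alpha and a beta chain. The alpha v chain (Itgav) pairs with beta 1, beta 3 or beta 5, and the alpha 4 chain (Itga4) pairs with beta 1 and binds a neighbouring site that thrombin exposes. The hyaluronan receptor CD44, best known for carrying leukocytes along hyaluronan-rich matrix, also binds osteopontin. In obese fat, osteopontin is known as a product of lipid-laden macrophages.

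After filtering, 7163 NCD cells with 32446811 UMIs and 6364 HFD cells with 17554115 UMIs were kept, and the median cell held 4190 and 2024.5 UMIs. Of the barcode sequences, 64 occurred in both libraries. Classes were named by marker genes, so that each name means a profile like that class. Macrophages were 2079 NCD and 2063 HFD cells. Adipose progenitors, stromal cells able to become adipocytes, were 3109 and 2977 cells. Both classes lay in different clusters in the 2 libraries: NCD macrophages mostly in clusters 11 and 1 and HFD macrophages in clusters 4 and 19, NCD progenitors in clusters 9, 10, 17 and 16 and HFD progenitors in clusters 3, 8 and 7. Myeloid clusters led by Lyz1 and Retnla, 530 NCD and 173 HFD cells, were kept apart without a cell type name. Markers of stromal cells stood at 4.89% of their whole-library level in NCD macrophages and at 29.3% in HFD macrophages, and macrophage markers stood at 2.84% and 23.1% in progenitors. These marker levels were taken as a measure of free RNA, meaning transcripts of other cells caught in a droplet. Whether droplets holding several cells, or clusters of mixed cells, added to these marker levels was not tested. For the results most affected, values are also given with this share subtracted, and for those clusters where the share is low.

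Spp1 lies on the plus strand of mouse chromosome 5 (GRCm38, chr5:104435118-104441050). The 250 bases before its RefSeq start site are printed first. They are followed by those of Gpnmb and Mmp12, which are macrophage genes whose levels across classes were among the 10 most like those of Spp1. The sequences are RefSeq's on GRCm38.p6, with matches to the searched motifs in capitals. The windows are chr5:104434861-104435110 (plus strand), chr6:49036268-49036517 (plus strand) and chr9:7347124-7347373 (plus strand, the second of 2 start sites of Mmp12).
Spp1: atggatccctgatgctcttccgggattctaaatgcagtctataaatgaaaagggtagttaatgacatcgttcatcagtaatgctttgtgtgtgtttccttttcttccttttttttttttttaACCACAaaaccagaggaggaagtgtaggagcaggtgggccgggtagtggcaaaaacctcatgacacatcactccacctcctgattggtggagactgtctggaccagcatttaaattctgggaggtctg
Gpnmb: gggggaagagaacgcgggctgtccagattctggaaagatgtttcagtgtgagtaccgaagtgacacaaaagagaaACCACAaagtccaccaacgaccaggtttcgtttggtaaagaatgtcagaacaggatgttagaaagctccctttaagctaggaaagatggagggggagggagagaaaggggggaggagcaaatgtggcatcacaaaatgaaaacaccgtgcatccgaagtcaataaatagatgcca
Mmp12: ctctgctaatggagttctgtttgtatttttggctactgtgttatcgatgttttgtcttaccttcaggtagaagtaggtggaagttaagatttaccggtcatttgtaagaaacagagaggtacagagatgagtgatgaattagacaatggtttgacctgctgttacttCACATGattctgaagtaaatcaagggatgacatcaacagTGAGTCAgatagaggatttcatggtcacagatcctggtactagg
Motifs were searched on both strands: AP-1 (TGANTCA), the M-box of the MiT factors (CATGTG), the E-box (CACGTG) and a Runx core (TGTGGT, read as ACCACA on the other strand). No 2 of the printed matches overlap. The Spp1 window held a Runx core from 128 to 123 bases before the start and no other match, and its second start site had none. The Gpnmb window held a Runx core 175 bases before the start, and the Mmp12 window held an AP-1 match 44 bases and an M-box 83 bases before the start. The first Mmp12 start site had no match. Of the other genes most like Spp1 that had a window, Slc37a2 and Prdx1 held AP-1 matches. Those of Fhl3, Otub1, Clasp2 and Syngr1 held no match. Of 32851 mouse windows of this length, 14.0% held the Runx core, 6.75% AP-1, 12.3% the M-box and 6.02% the E-box. Of the receptor genes with a window, Itga4 held a Runx core at 60 bases and Cd44, Itgav, Itgb1 and Itgb5 held no match. The table matched 6 of the 7 genes. A match describes letters and not a bound site.

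Spp1 was a rare transcript in the chow library and a concentrated one in the high-fat library. The NCD library held 104 Spp1 UMIs in 46 cells, 3.21 CPM (UMIs per 1000000 UMIs of the cells in question), and the HFD library 2626 UMIs in 655 cells, 149.6 CPM. That is a 46.7-fold higher level (95% interval 38.4 to 57.3). The chow UMIs had no single source: 27 lay in dendritic cells, 23 in the Lyz1 Retnla clusters, 22 in macrophages and 24 in unnamed cells. Of the last, 21 were in cluster 5.1, which is led by Il1b and Ccr2. Scaled to total UMIs, NCD dendritic cells had the highest level of the named classes with at least 50 cells, 17.3 CPM (11.4 to 25.2), against 2.79 CPM (1.75 to 4.22) in macrophages. The interval of the NCD Lyz1 Retnla clusters (6.84 CPM, 4.33 to 10.3) lay between them without overlap. Most of the NCD dendritic signal was 1 cell: a cell of cluster 5.2 held 14 of the 27 UMIs, with no UMI of the 7 macrophage markers. Of the 22 NCD macrophage UMIs, 10 lay in the 7 NCD cells of cluster 19.1, otherwise a cluster of HFD cells.

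**Figure D1:**
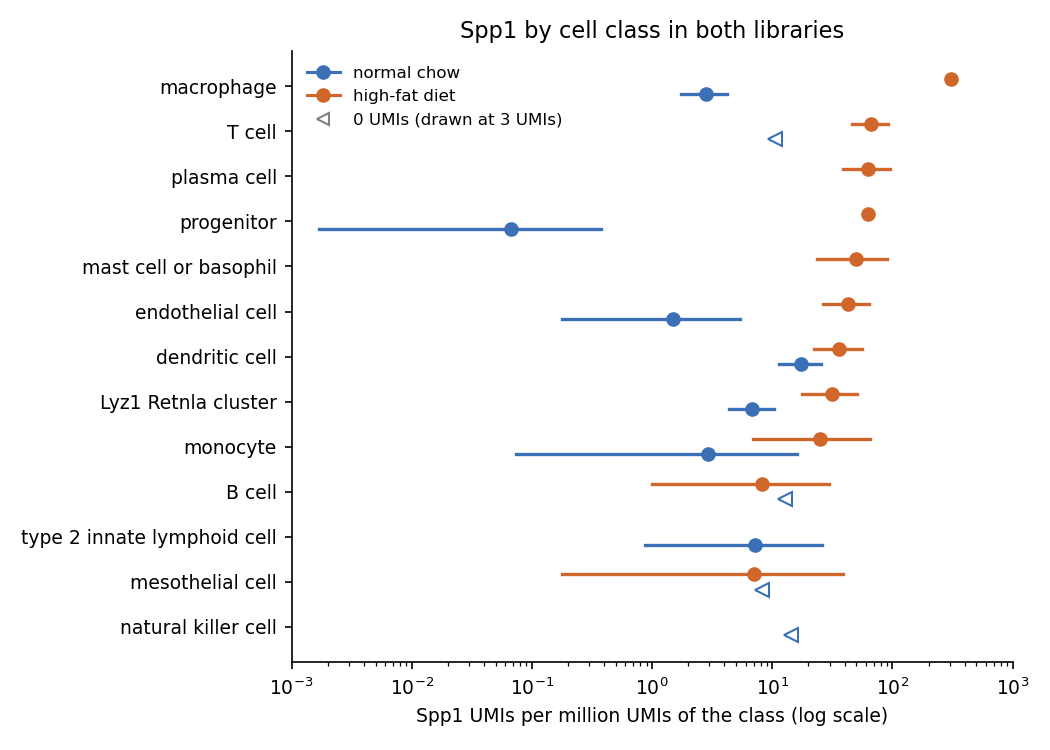
Spp1 level in CPM in each class with at least 50 cells, on a log axis, for the NCD library (blue) and the HFD library (orange). Bars are exact Poisson 95% intervals, and open triangles mark 0 UMIs, drawn at the level of 3 UMIs. HFD macrophages stand at 305 CPM, and the next of the named HFD classes of this size, T cells, at 66.6 CPM. The 24 HFD natural killer cells, at 160 CPM, are too few to be drawn.

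In the HFD library macrophages held 1965 of the Spp1 UMIs, 74.8% (73.1 to 76.5), and 36.7% of all UMIs. Their level was 305 CPM (292 to 319). Progenitors held 464 UMIs, 62.3 CPM (56.8 to 68.2), against 1 UMI in 3109 NCD progenitors. The ratio of progenitor levels, 929, rests on that 1 UMI and has an interval of 166 to 36785. T cells stood at 66.6 CPM (46.4 to 92.6), plasma cells at 62.7, endothelial cells at 42.4 and dendritic cells at 36.2. The intervals of T cells, plasma cells and progenitors overlapped. The class of natural killer cells, only 24 in HFD, stood at 160 CPM from 12 UMIs (82.7 to 280). Unnamed HFD cells held 53 Spp1 UMIs, 2.02% of the library's, and 1.97% of all UMIs. Of the 53, 51 lay in cluster 5.1. Single cells held much of the smaller classes' counts: 1 T cell with 15 of 35 Spp1 UMIs and 1 endothelial cell with 10 of 22. After subtraction of free RNA, HFD macrophages stood at 369 CPM and progenitors at 36.1, while T cells, plasma cells, endothelial cells, dendritic cells and B cells stood at 0. The macrophage share of HFD Spp1 was then 87.6%. Subtraction sets every level below the subtracted amount to 0, so these values do not show absence of Spp1. In clusters with little free RNA, HFD dendritic cells stood at 18.4 CPM (5 UMIs, 5.97 to 42.9), against 17.4 CPM in NCD. There, HFD T cells stood at 9.91 CPM and B cells at 8.23 CPM (2 UMIs each), and endothelial cells held 0 UMIs.

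Within HFD macrophages the Spp1 UMIs were concentrated in few cells. Of 2063 macrophages, 391 had at least 1 Spp1 UMI and 218 of those had exactly 1. The 57 macrophages with 5 or more Spp1 UMIs held 1441 of the 1965, or 73.3%. The 10 highest cells of the class held 41.5%, and the highest cell held 149. By cluster, Spp1 was highest in cluster 19.1 at 1003 CPM, where 153 cells held 1090 UMIs and 22 cells with 5 or more UMIs held 1014 of these. Clusters 24.2, which is led by cell division genes together with Mmp12 and Gpnmb, and 4.0 followed at 338 and 279 CPM. Cluster 19.0, led by Ms4a7 and the C1q genes, stood at 23.5 CPM. Clusters were made from these same counts, with Spp1 among the leading genes of clusters 19.1 and 24.2, so their order is a description.

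**Figure D2:**
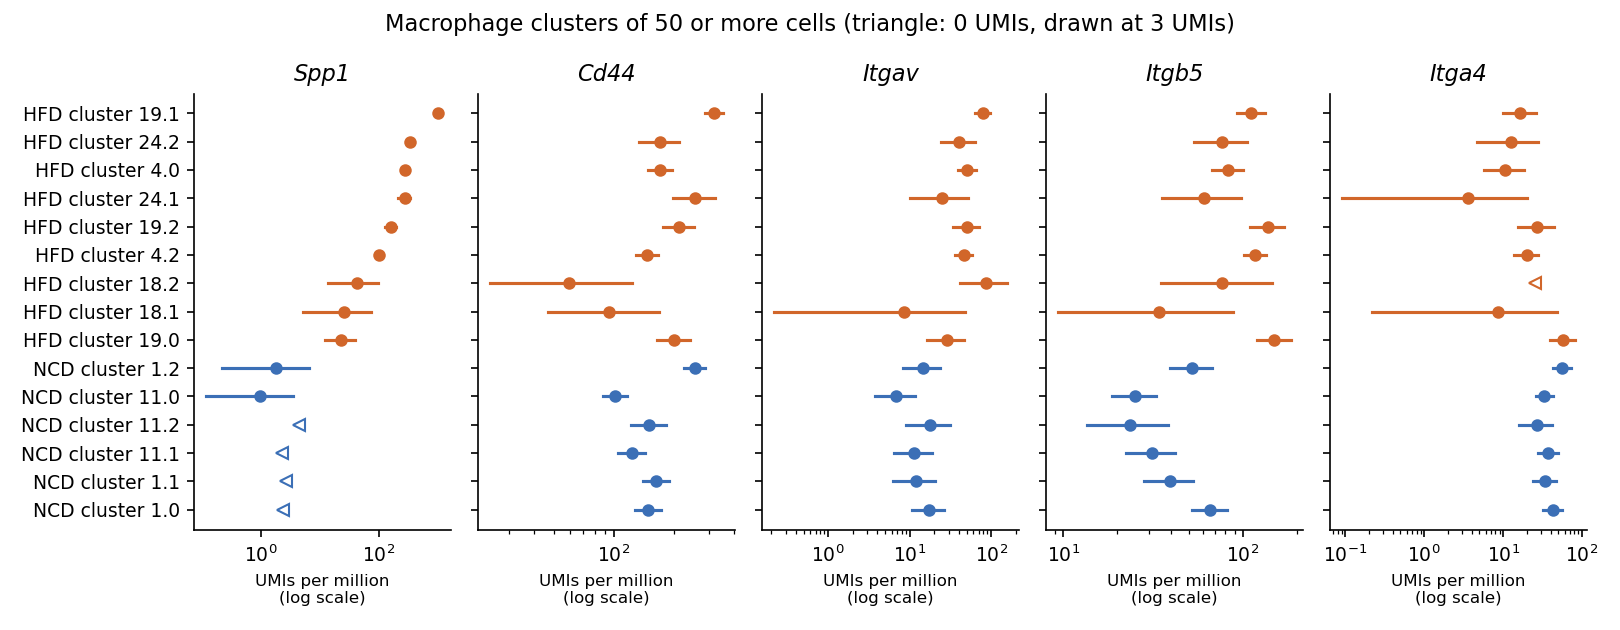
Levels of Spp1 and 4 receptor genes in the macrophage clusters with at least 50 cells in a library, in CPM on log axes, with exact Poisson 95% intervals (NCD blue, HFD orange). Spp1 ranges from 23.5 to 1003 CPM over the HFD clusters, whereas Itgb5 ranges from 34.2 to 150.0 CPM.

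Shares of cells gave the same order of the diets at equal depth. With every cell thinned to 2000 UMIs, 192 of 1136 HFD macrophages had an Spp1 UMI, 16.9% (14.8 to 19.2), and 6 of 1858 NCD macrophages, 0.323% (0.119 to 0.702). This left out 927 HFD and 221 NCD macrophages. Without thinning the shares were 19.0% and 0.385%. Among HFD B cells, which are not known as an Spp1 source, 1 of 40 had a UMI (interval 0.0633 to 13.2%), and among HFD T cells 7 of 105 (6.67%, 2.72 to 13.3). HFD progenitors reached 4.97% (3.92 to 6.21), and the intervals of progenitors and T cells overlapped. In clusters with little free RNA, unthinned, 2 of 79 HFD T cells (2.53%, 0.308 to 8.85) and 4.37% of 1944 HFD progenitors (3.51 to 5.38) had an Spp1 UMI, and progenitors there stood at 62.3 CPM. Before thinning the median HFD macrophage held 2107 UMIs, the median B cell 2188, the median T cell 1941 and the median progenitor 1988.

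The Spp1 UMIs of HFD progenitors lay partly in a few high cells and partly as single UMIs. There were 169 progenitors with an Spp1 UMI, and 134 of these had exactly 1. In progenitors with fewer than 5 Spp1 UMIs there were 195 in all, 5.30 for every 100 UMIs of the macrophage complement gene C1qb, against 6.66 in macrophages and 7.19 in the whole HFD library. The same ratio was 24.2 against 25.1 for Trem2, a lipid receptor of macrophages, and 33.2 against 32.6 for Mmp12. It was lower than in macrophages for Gpnmb (23.3 against 45.9) and for Apoe (0.736 against 2.34), so the ratios did not match for all 5 genes compared. The other 269 UMIs, 58.0% of the class, lay in 12 cells with 5 or more. The highest of them held 84, 36, 32, 25 and 20 Spp1 UMIs. All 9 of the cells with 9 or more Spp1 UMIs held only 1 to 4 UMIs of the 7 macrophage markers, 0.0352 to 0.282% of their UMIs, against 0.0688% in the median HFD progenitor. The 15 stromal markers made up 4.04 to 10.1% of their UMIs, against 6.02% in the median progenitor. The 33 macrophages with 9 or more Spp1 UMIs held 7 to 337 macrophage marker UMIs, 0.289 to 2.60%. Per 1000 UMIs, the 9 progenitors held 3.89 to 15.8 Spp1 UMIs (median 11.3), and the 33 macrophages held 0.565 to 42.7 (median 5.60). The cutoff of 9 was chosen with these values known, and it leaves out the 3 progenitors with the most macrophage marker UMIs. Those 3, with 5 or 6 Spp1 UMIs, held 47, 16 and 9, or 1.09, 0.508 and 0.257% of their totals. At 5 or more Spp1 UMIs the ranges overlapped, 0.0352 to 1.09% in the 12 progenitors and 0.148 to 2.60% in the 57 macrophages. Because cells were picked by their Spp1 count, their levels per 1000 UMIs are a description.

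**Figure D3:**
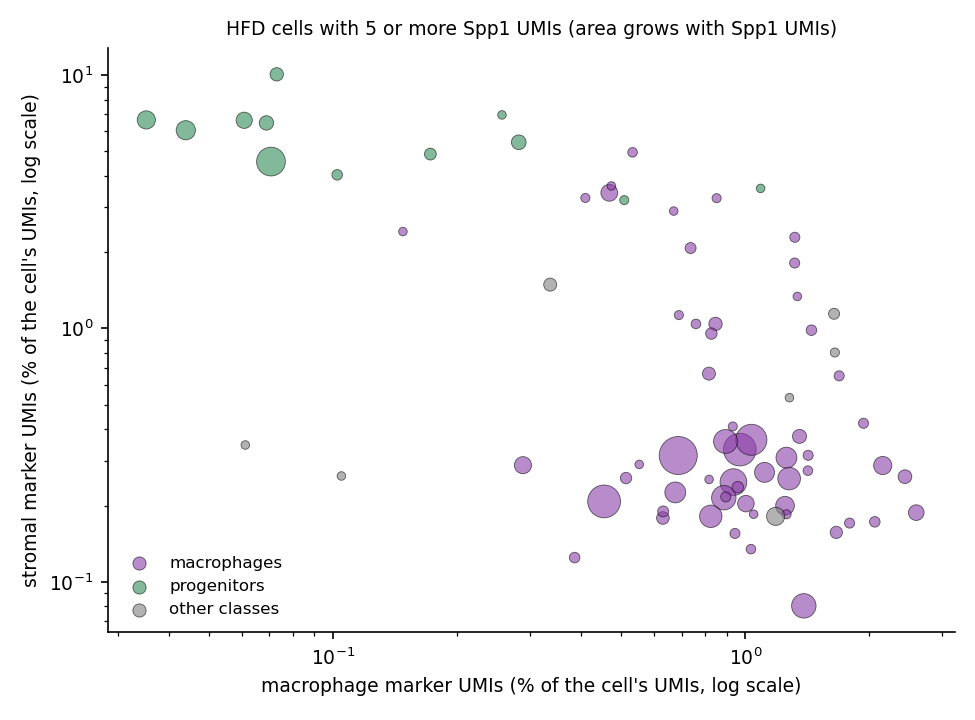
Each point is an HFD cell with 5 or more Spp1 UMIs, its area growing with the number of Spp1 UMIs. The axes give the percent of the cell's UMIs from 7 macrophage markers and from 15 stromal markers, both on log scales. Progenitors lie towards the upper left, with the 9 highest at or below 0.282% macrophage markers and 1 of the other 3 at 1.09%. The macrophages with the most Spp1 lie at the lower right.

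Of the 12 progenitors, 6 lay in cluster 3.1 and held 198 of its 255 Spp1 UMIs, 2 in cluster 8.1 and 4 in cluster 3.0. Clusters 3.1, 8.1 and 3.0 are all led by Timp1, Cxcl14 and Mmp3 among other genes and are nearly all HFD cells, 1155, 239 and 926 of them. Spp1 per 100 C1qb UMIs was 39.2 in cluster 3.1, 48.1 in cluster 8.1 and 5.51 in cluster 3.0. Per 100 Gpnmb UMIs it was 113, 60.2 and 37.9. Apart from Spp1, the gene with the highest ratio in the 12 cells against the other 2965 HFD progenitors was Tnc, the matrix protein tenascin C. All 24 of its UMIs came from 1 cell. Timp1, an inhibitor of metalloproteinases, followed at 3432 CPM against 719 CPM, with a UMI in 10 of the 12. The chemokine gene Cxcl14 was at 844 against 234 CPM. These cells and genes were singled out after their values were seen, among genes with at least 20 UMIs in the 12 cells. The 12 cells held 2 Cd44, 5 Itgav, 8 Itgb1 and 3 Itgb5 UMIs and none of Itgb3 or Itga4, too few to set against other progenitors.

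Among the receptors, both chains of the alpha v beta 5 integrin were higher in HFD macrophages. Itgav, the alpha v chain (GRCm38, chr2:83724397-83806916, plus strand), stood at 12.4 CPM in NCD macrophages (98 UMIs, 10.1 to 15.1). It stood at 49.2 CPM in HFD macrophages (317 UMIs, 43.9 to 54.9), 3.96-fold higher (3.15 to 5.02). Itgb5, the beta 5 chain (chr16:33829665-33949338, plus strand), stood at 39.5 CPM (312 UMIs) and 104.0 CPM (670 UMIs), 2.63-fold higher (2.30 to 3.02). Progenitors express both genes and stromal markers were higher in HFD macrophages, so the ratio was taken again without much of the free RNA. In the clusters with little free RNA, where stromal markers were at or below 25% of the library level, it was 3.89 for Itgav (3.02 to 5.05) and 2.67 for Itgb5 (2.29 to 3.12). With free RNA subtracted it was 4.0 and 2.74. At 2000 UMIs a cell, 8.54% of HFD and 2.58% of NCD macrophages had an Itgav UMI (12.6% and 4.67% unthinned), against 0 of 40 HFD and 0 of 54 NCD B cells, which allows shares of up to 7.50% and 5.56% when 0 is read as up to 3 cells, and up to 8.81% and 6.60% by Clopper-Pearson. The share in HFD macrophages is therefore not above what 40 B cells can limit. An Itgb5 UMI was found in 19.0% and 7.91% of macrophages (23.9% and 12.7% unthinned), and in 1 of 40 and 1 of 54 B cells. Both chains were seen together in 19 of 1136 HFD macrophages (1.67%, 1.01 to 2.60) and in 4 of 1858 NCD macrophages (0.215%, 0.0587 to 0.550). The products of the single shares, 1.62% and 0.204%, lay inside those intervals.

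The other 4 receptor genes differed less between the diets or were lower in HFD macrophages. Cd44 (chr2:102811141-102901665, minus strand) stood at 153 and 192 CPM, 1.26-fold higher in HFD (1.16 to 1.36), and 1.502-fold (1.37 to 1.65) in clusters with little free RNA. That direction depends on which clusters count as macrophages: with the myeloid clusters led by Lyz1 and Retnla or by Il1b added, the log2 ratio was -0.31 in place of 0.33. Itga4, the alpha 4 chain (chr2:79255426-79333123, plus strand), was 1.78-fold lower in HFD, at 37.0 and 20.8 CPM (292 and 134 UMIs), and 0.690 of the NCD level (0.536 to 0.879) in the clusters with little free RNA. Itgb1, the beta 1 chain shared by many integrins (chr8:128685654-128733200, plus strand), was 1.28-fold lower, at 123 and 96.3 CPM. In the clusters with little free RNA its ratio was 0.935 and its interval (0.829 to 1.05) held 1. Itgb3, the beta 3 chain of the classical osteopontin receptor of osteoclasts (chr11:104608000-104670476, plus strand), had 7 NCD and 13 HFD UMIs, and the HFD level was 0 after subtraction of free RNA. In thinned cells an Itgb3 UMI was present in 6 NCD and 3 HFD macrophages, too few for a comparison. The chains of alpha 4 beta 1 were seen together in 6 of 1136 HFD macrophages (0.528%, 0.194 to 1.15) and 27 of 1858 NCD macrophages (1.45%, 0.960 to 2.11).

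**Figure D4:**
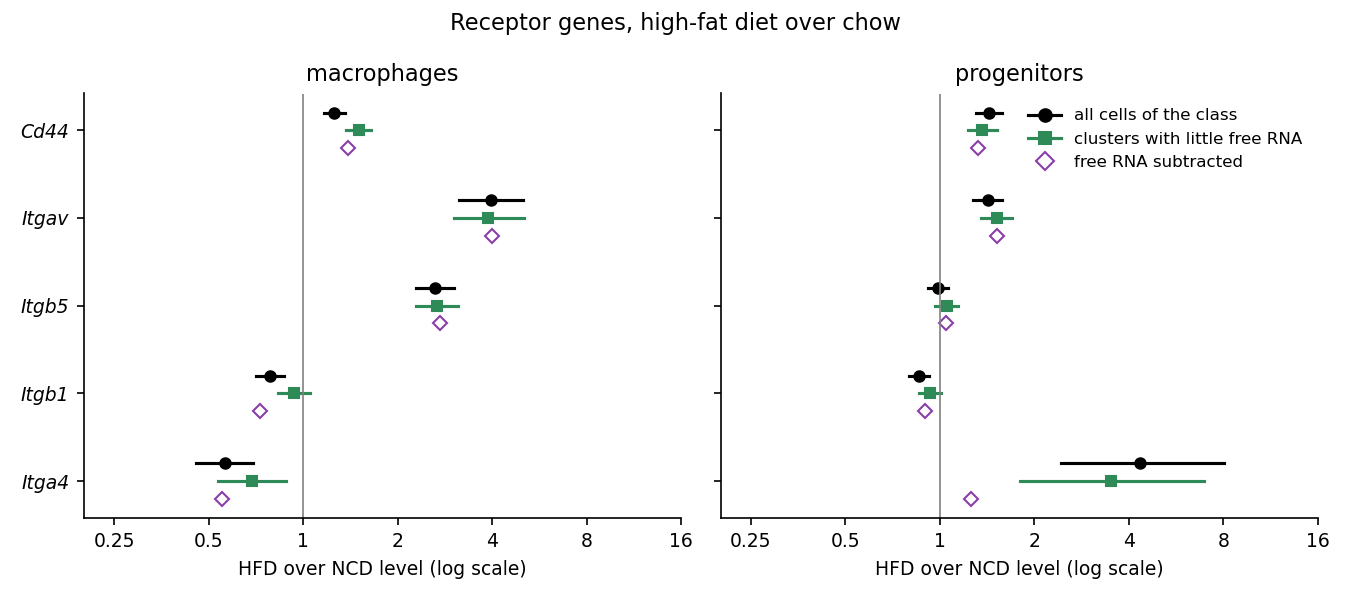
HFD over NCD level of 5 receptor genes in macrophages and progenitors on a log axis, for all cells of the class (black), clusters with little free RNA (green) and after free RNA subtraction (open purple). Lines are exact conditional binomial 95% intervals. Itgav and Itgb5 in macrophages stand between 2.63 and 4.0 in all 3 versions, and Itga4 in progenitors drops from 4.34 to 1.25 after subtraction.

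Of the 5326 genes with at least 20 CPM in macrophages of either library, 9.44% were at least 2-fold higher in HFD and 10.5% at least 2-fold lower. Of the 6 receptor genes, 5 passed this level, of which 2, Itgav and Itgb5, were at least 2-fold higher and 0 at least 2-fold lower. Itgb3 did not pass. The median log2 ratio of the 5 was 0.33, against -0.03 over all genes that passed. With Itgb3 and its 7 and 13 UMIs it was 0.76, and at equal depth per cell this median of 6 was -0.019. At that depth 6 NCD and 3 HFD macrophages had an Itgb3 UMI, too few for a comparison. Over 13 alternatives the log2 ratio of Itgav ranged from 1.62 to 2.06 and that of Itgb5 from 1.33 to 1.65. Among the 5725 genes at 20 CPM or more in progenitors, 4.58% were at least 2-fold higher and 4.17% lower. There, 4 receptor genes passed, and 0 were 2-fold apart in either direction. The median of all 6 was 0.25, against -0.21 over all genes.

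In progenitors the alpha v chain and Cd44 were modestly higher, and the beta chains were level or lower. Itgav stood at 57.5 CPM in NCD (858 UMIs) and 81.8 CPM in HFD (609 UMIs), 1.42-fold higher (1.28 to 1.58). Cd44 stood at 73.3 and 105 CPM, 1.44-fold higher (1.31 to 1.57), and 1.32-fold after subtraction. The HFD over NCD ratio of Itgb5 was 0.988 (0.918 to 1.06), at 145 and 143 CPM. The ratio was 0.858 (0.797 to 0.923) for Itgb1 and 0.763 (0.595 to 0.973) for Itgb3. The last 2 intervals held 1 in clusters with little free RNA, where the ratios were 0.928 and 0.908. Itga4 had 18 and 39 UMIs, a ratio of 4.34 that became 1.25 after subtraction.

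Among named classes with at least 50 cells, the receptor genes differed in which class held the highest level. Cd44 was highest in monocytes, at 499.8 CPM (428 to 580) in NCD and 429 CPM (333 to 543) in HFD. NCD Lyz1 Retnla clusters were next at 439 CPM, within the monocytes' interval. Itga4 was also highest in monocytes, at 174 CPM (133 to 224) and 94.5 CPM (52.9 to 156). The interval of the 64 NCD natural killer cells (94.6 CPM, 57.8 to 146) overlapped the first, and in HFD the dendritic, plasma, T and B cells, from 82.8 to 65.9 CPM, lay within the monocytes' interval. Itgb5 was highest in progenitors in both diets. In NCD, mesothelial cells came next at 62.7 CPM, and in HFD macrophages at 104.0 CPM, below the progenitor interval of 135 to 152 and overlapping mast cells at 93.9 CPM. Itgb1 was highest in endothelial cells, which line vessels, at 202 CPM (178 to 227) in NCD and 154 CPM (122 to 192) in HFD. The interval of NCD natural killer cells (115 to 230) overlapped the first, and HFD progenitors at 139 CPM were within the second. The 31 NCD mural cells, the contractile cells around vessels, stood above all of these for Itgb1 at 448 CPM (40 UMIs, 320 to 610), and at 112 CPM for Itgb5 (10 UMIs, 53.7 to 206). Itgav was highest in NCD type 2 innate lymphoid cells at 104.5 CPM (29 UMIs, 70.0 to 150.0), ahead of mesothelial cells at 68.2 CPM (44.1 to 100.6), whose interval overlapped, and of progenitors at 57.5 CPM, whose interval did not. Those lymphoid cells also held the highest Itgb3 level, 32.4 CPM from 9 UMIs (14.8 to 61.5), which overlapped that of NCD progenitors (16.4 CPM, 14.4 to 18.5), and no Itgb5 UMI. Only 7 HFD cells had this profile, so it is not given there. In HFD, progenitors were highest for Itgav at 81.8 CPM, with monocytes (75.6 CPM) and mesothelial cells (69.97 CPM) inside overlapping intervals.

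**Figure D5:**
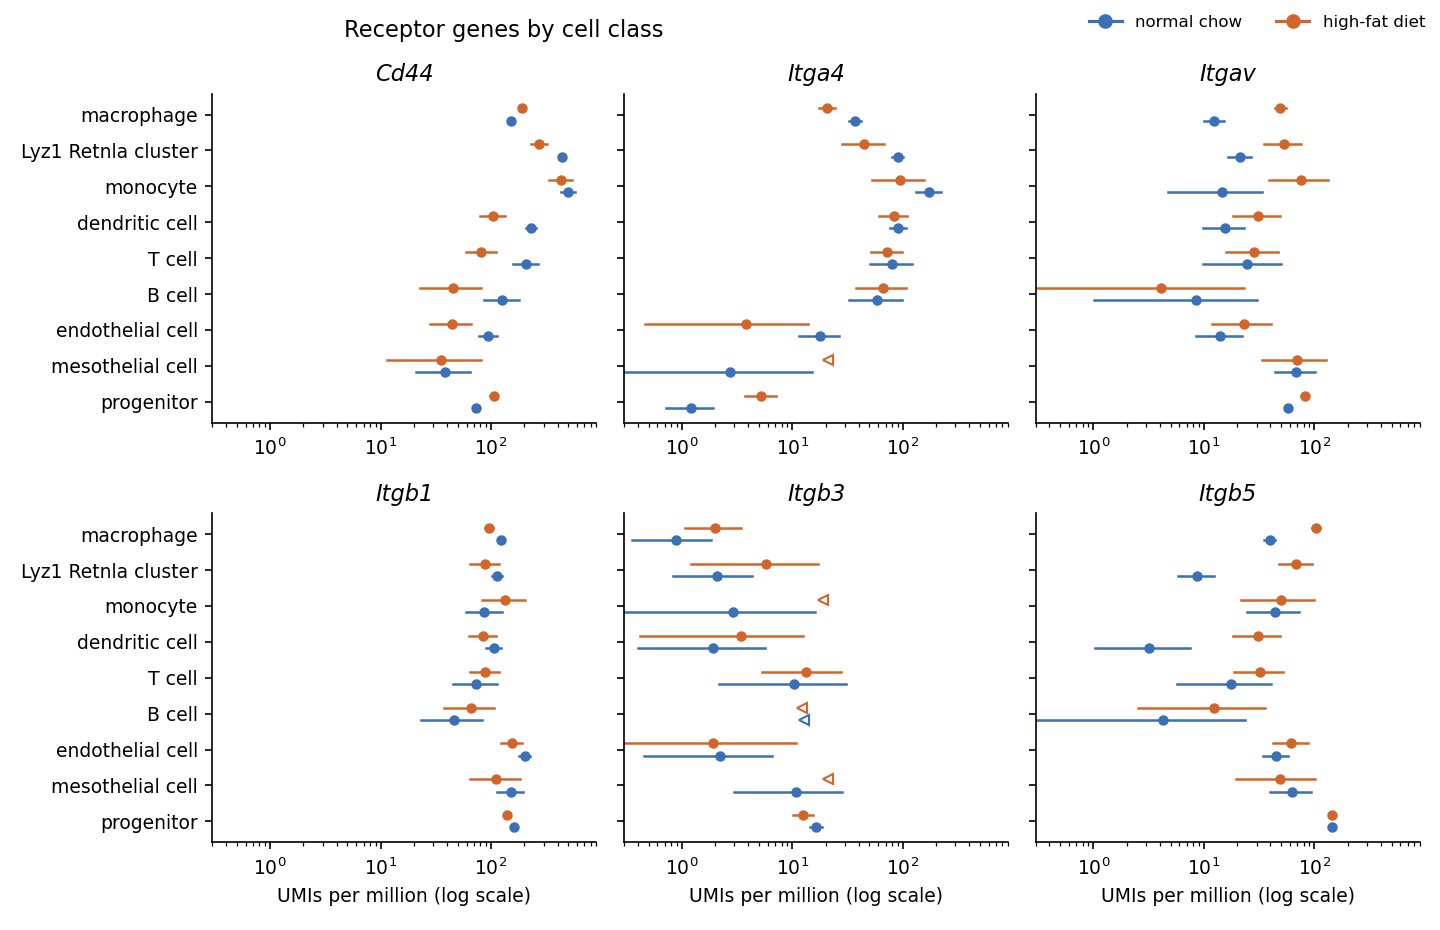
Levels of the 6 receptor genes in 9 classes with at least 50 cells in both libraries, in CPM on log axes, with exact Poisson 95% intervals cut at the axis edge (NCD blue, HFD orange). Open triangles mark 0 UMIs, drawn at 3 UMIs. Cd44 is lower in HFD in dendritic, T, B and endothelial cells and higher in macrophages and progenitors.

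Outside macrophages and progenitors, Cd44 was lower in the HFD library in several classes. It stood at 232 and 104 CPM in dendritic cells (2.24-fold lower), 206 and 81.8 CPM in T cells (2.52-fold), 127 and 45.3 CPM in B cells (2.80-fold, 30 and 11 UMIs) and 94.2 and 44.3 CPM in endothelial cells (2.13-fold). Stromal markers in those HFD classes stood at 12.0% (B cells) to 59.8% (endothelial cells) of their library level, against 2.02 to 12.9% in NCD. After subtraction of free RNA, Cd44 stood at 234 and 88.0 CPM in dendritic cells, 214 and 22.5 CPM in T cells and 126 and 31.9 CPM in B cells. In endothelial cells it stood at 90.4 CPM and 0. In clusters with little free RNA it stood at 233 and 132 CPM in dendritic cells, 165 and 54.5 in T cells and 94.2 and 32.8 in endothelial cells, so Cd44 was lower in HFD in every version. The clusters behind some of these classes differed by diet. Of the T cells, 149 of 228 in HFD lay in cluster 12.2, which held 10 of the 88 in NCD. Cluster 12.0 held 43 in NCD and 8 in HFD. The T cells compared were thus partly of different clusters, also in the version with little free RNA. Dendritic cells of NCD were split between cluster 5 (48.9%) and cluster 21 (41.5%), and those of HFD lay mostly in cluster 21 (74.9%). Of the endothelial cells, 212 of 344 in NCD lay in cluster 14.0, and 136 of 215 in HFD lay in cluster 14.2. The latter is led by the lymphatic genes Ccl21a and Mmrn1 together with Gpihbp1, Fabp4, Rbp7 and Aqp1, which also lead cluster 14.0. In monocytes the ratio was 0.857 and its interval (0.638 to 1.14) held 1. As counted, Itgb5 was 9.67-fold higher in HFD in dendritic cells (5 and 18 UMIs, 3.46 to 33.3), with stromal markers at 28.1% of the library level. This difference was not present after subtraction (1.18 and 0.329 CPM) or in clusters with little free RNA (3.22 and 3.68 CPM, 5 and 1 UMIs). Itgav in dendritic cells was 2.01-fold higher as counted (1.03 to 3.87) and stood at 14.9 and 19.6 CPM after subtraction. In the Lyz1 Retnla clusters Itgb5 was 7.91-fold higher (29 and 35 UMIs, 4.70 to 13.4) and Itgav 2.49-fold (1.54 to 3.93). There, subtraction gave 6.11 and 50.1 CPM for Itgb5 and 20.6 and 49.2 CPM for Itgav. However, 98.5% of these NCD cells lay in cluster 2 and 88.4% of the HFD cells in cluster 4. In the 20 HFD cells with little free RNA, all of cluster 2, the levels were 6.85 CPM for Itgb5 and 20.5 CPM for Itgav (1 and 3 UMIs), near the NCD levels of 8.62 and 21.1 CPM. In monocytes Itgav had 5 and 12 UMIs, 5.20-fold higher (1.71 to 18.9). Stromal markers stood at 15.1% in HFD monocytes, and subtraction gave 13.8 and 78.3 CPM.

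Macrophages with and without Spp1 were compared within the HFD library after thinning to 2000 UMIs, 192 cells with a UMI and 944 without. The receptor counts were low, and Itgb3, with 0 and 3 UMIs, gave no ratio. Cd44 stood at 195 CPM in cells with Spp1 and 181 CPM in cells without (ratio 1.08, 0.828 to 1.39). Itgav stood at 59.9 and 41.8 CPM (1.43, 0.858 to 2.30), and Itgb5 at 96.4 and 113 CPM (0.854, 0.585 to 1.22). Itgb1 stood at 115 and 91.1 CPM (1.26, 0.882 to 1.76). Itga4 stood at 10.4 and 21.7 CPM (4 and 41 UMIs, 0.480, 0.125 to 1.32). The intervals of these ratios held 1. The lipid-associated macrophage genes, a programme of lysosomal and lipid-handling genes, had a median ratio of 1.31 over 14 members, against 1.02 over the 5040 genes with at least 20 CPM in either set of cells. The lysosomal glycoprotein gene Gpnmb was 1.69-fold higher (1.499 to 1.91), the fatty acid binding gene Fabp5 1.55-fold (1.34 to 1.77) and the tetraspanin Cd9 1.53-fold (1.37 to 1.71). The 10 resident macrophage genes had a median ratio of 0.375, and Retnla, a secreted product of tissue-resident macrophages, stood at 151 and 1654 CPM. Both lists partly define the clusters that hold Spp1, so this is a description.

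Proteases known to cut osteopontin differed in their cell source. Of 7 genes on the list, 4 had at least 20 CPM in macrophages, 3 at least 2-fold higher in HFD and 1 lower, against the 9.44% and 10.5% of all genes above. Mmp12, the macrophage elastase, stood at 15.6 and 934 CPM (60.0-fold, 50.2 to 72.3), and the lysosomal protease Ctsd at 501 and 2934 CPM (5.86-fold, 5.66 to 6.06). Mmp9, a gelatinase, went the other way, at 135 and 1.71 CPM (1069 and 11 UMIs, 79.3-fold lower). Mmp3, stromelysin 1, was a progenitor transcript, at 15.5 and 279 CPM there (18.0-fold, 15.7 to 20.7), and its 40.6 CPM in HFD macrophages became 0 after subtraction. In progenitors 3 proteases passed, all at least 2-fold higher, against 4.58% of all genes: Mmp3, Ctsd (190 and 567 CPM, 187 and 299.8 after subtraction) and Mmp12 (0.603 and 78.9 CPM, 0 in HFD after subtraction). The genes for thrombin (F2), plasmin (Plg) and Mmp7 did not pass in either class. Ibsp, Dmp1, Dspp and Mepe, the bone and tooth relatives of Spp1 in the same family, did not pass either.

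Other ligands of these integrins or of CD44 were 6 at least 2-fold higher and 1 lower in HFD macrophages among 7 of 11 that passed, against 9.44% and 10.5% of all genes. All 15 stromal markers were also at least 2-fold higher there. Mfge8, a bridge between dying cells and alpha v integrins, stood at 19.6 and 197 CPM in macrophages (10.0-fold, 8.47 to 11.9) and at 15.2 and 207 CPM after subtraction. Postn (periostin) stood at 5.32 and 62.2 CPM as counted and at 0 in HFD after subtraction. Fn1 (fibronectin) stood at 96.7 and 231 CPM and after subtraction at 51.3 and 8.14 CPM, so its direction turned. Vcam1, a ligand of alpha 4 beta 1, was 3.68-fold lower, at 113 and 30.7 CPM. In progenitors 8 of the 11 ligands passed, with 2 at least 2-fold higher, Postn (201 and 561 CPM) and Has1 (151 and 334 CPM), and 1 lower, Has2 (21.0 and 9.26 CPM), against 4.58% and 4.17% of all genes. Has1 and Has2 make hyaluronan, the main ligand of CD44.

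Of 16 genes that link integrins or CD44 to the cytoskeleton, 11 passed in macrophages. Of these, 0 were at least 2-fold higher and 2 lower, against 9.44% and 10.5% of all genes. In progenitors 10 passed with 0 in either direction, against 4.58% and 4.17% of all genes. The 2 lower ones, Parvb (36.4 and 16.4 CPM) and Pxn (47.8 and 23.6 CPM), are named after their values were seen. Among 21 further integrin subunits, 5 passed in macrophages, 1 at least 2-fold higher and 1 lower, against 9.44% and 10.5% of all genes. Itgax, the CD11c chain, was the higher one (3.80 and 51.0 CPM, 13.4-fold, 9.23 to 20.2), and Itga9, the alpha 9 chain, which also binds osteopontin, was the lower one (31.3 and 6.67 CPM, 4.69-fold). Itgam, the CD11b chain, was 1.85-fold lower (111 and 60.0 CPM). In progenitors 5 subunits passed, 2 at least 2-fold higher and 1 lower, against 4.58% and 4.17% of all genes. The higher ones were Itgb2 (2.21 and 27.3 CPM, 0.288 and 5.0 after subtraction) and Itga2b (5.90 and 23.6 CPM). The lower one was Itga9 (25.3 and 11.0 CPM). Itga9, Itga2b and Nfatc1 were named after their values were seen. Of 12 transcription factors from families known to act on the Spp1 promoter, 11 passed in macrophages. Of the 11, 0 were at least 2-fold higher and 2 at least 2-fold lower, Tfe3 and Nfatc1, against 9.44% and 10.5% of all genes. The median log2 ratio of the 11 was -0.78, against -0.03 over all genes that passed. Tfe3 stood at 68.7 and 29.8 CPM (2.30-fold lower) and Runx1 at 90.1 and 45.3 CPM (1.99-fold lower), while Mitf was 1.28-fold higher (1.07 to 1.55). In progenitors 9 passed, with 2 at least 2-fold higher and 0 lower, against 4.58% and 4.17% of all genes. The 2 were Runx1 (12.3 and 37.3 CPM) and Spi1 (4.49 and 52.6 CPM, 0 and 7.06 after subtraction). In macrophages the AP-1 gene Jun stood at 1122 and 596 CPM. Among the thinned HFD macrophages, Jun was at 406 CPM in cells with Spp1 and 637 CPM in cells without (0.638, 0.536 to 0.754).

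Across 22 combinations of class and library with at least 50 cells, the 10 genes of 5718 whose log2 level (with 10 CPM added) correlated most with that of Spp1 were Atp6v0d2 (Pearson r 0.88), Actb (0.83), Mmp12 (0.83), Fhl3 (0.82), Slc37a2 (0.80), Otub1 (0.80), Gpnmb (0.79), Clasp2 (0.79), Prdx1 (0.77) and Syngr1 (0.77). Atp6v0d2, a subunit of the lysosomal and osteoclast proton pump, was measured in macrophages at 9.50 CPM on chow and at 233 CPM on high-fat feeding. Gpnmb ranked 7 here, 92 with 1 CPM added in place of 10, and 56 by Spearman's correlation. The points share 2 libraries, their depth and their free RNA, and the correlation describes them only. The receptors were less alike Spp1: Itgb5 ranked 280 (r 0.43), Itgav 687 (0.30) and Cd44 2365 (0.02).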

How the data were processed

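Droplet-based 3' single-cell libraries of the epididymal stromal vascular fraction were measured, 1 per diet. The deposited tables hold UMI counts per gene and cell barcode, not normalised. Per the submitters' processing notes, the authors used Cell Ranger and Seurat with mm10 (GRCm38); versions are not given in the sources used here. No barcode held fewer than 1401 UMIs. Both tables held the same 27998 genes. Whether counting used strand is not given in the sources used here.

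The members, gene lists and tests were chosen with earlier results of these data known. Cell filters were a minimum of 500 genes and 1000 UMIs and a mitochondrial share of no more than 20%. Scrublet doublets were removed (182 NCD, 422 HFD); in HFD its own threshold called 0 barcodes, so barcodes at or above the score bounding the highest 5% were taken, 6.17% of barcodes because scores tie. Both libraries were clustered together in scanpy 1.11.5 (Python 3.11.15) without integration: 2000 variable genes, 30 components, 15 neighbours, Leiden resolution 1, then 0.3 within each cluster. Each cluster was named for the marker list with the largest mean log2 fold over the median level of the resolution 1 clusters. At least 3 markers at 1.5-fold were required. A cluster stayed unnamed where another class had more markers among its 10 leading genes. Chosen after the clusters were seen were the second split, the haemoglobin genes left out of the leading genes, the separate Lyz1 Retnla clusters, and the merging of dendritic, monocyte and lymphatic endothelial subclasses.

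Counts were summed per class and library and scaled to CPM. Intervals are exact (Poisson for sums, Clopper-Pearson for shares, conditional binomial for ratios). A count of 0 was read as up to 3. Free RNA was estimated as the median level of 15 stromal markers, or of 7 macrophage markers in progenitors and mesothelial cells, against the library, and the library profile was subtracted in that share. Levels below 0 after subtraction were set to 0. All 7 members are named; list genes are named with at least 50 CPM in a compared class, up to 5 a list by log2 ratio, and so are the 10 genes most like Spp1; others are stated as chosen after their values were seen. Code was tested on simulated data. Alternatives covered cell filters, doublets, naming, free RNA, scaling, depth and the measure of likeness.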

Additional observations from a re-analysis of the deposited data

Results flagged for a closer look

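With 1 library per diet, differences of opposite direction between classes were picked out by counting intervals that left out 1 on opposite sides, and the difference between classes was not tested. Cd44 had a log2 HFD over NCD ratio of 0.33 in macrophages and 0.52 in progenitors, and of -1.48 in B cells, -1.33 in T cells, -1.16 in dendritic cells, -1.09 in endothelial cells and -0.70 in the Lyz1 Retnla clusters. The 30 and 11 B cell UMIs, the 59 and 43 T cell UMIs and the 127 and 23 endothelial UMIs are the smallest counts behind these values. Itga4 had a log2 ratio of 2.12 in progenitors, where it rests on 18 and 39 UMIs and its ratio becomes 1.25 after subtraction of free RNA. After subtraction the Cd44 directions did not turn in these classes. Endothelial and Lyz1 Retnla cells lay mostly in different clusters in the 2 libraries, and T cells and dendritic cells did so in part. Itga4 was -2.21 in endothelial cells (24 and 2 UMIs), -1.01 in the Lyz1 Retnla clusters, -0.88 in monocytes and -0.83 in macrophages.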

How the results depend on the processing

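The log2 HFD over NCD ratio of Spp1 in macrophages was 6.77. It was 7.59 under a stricter cell filter (1000 genes, mitochondrial share up to 10%), 5.65 with the Lyz1 Retnla and Il1b clusters added to macrophages, and 5.60 without cells of 20 or more Spp1 UMIs; the last 2 settings were chosen after seeing the data. The macrophage percent of HFD Spp1 UMIs was 74.8. It was 77.3 with no cell filter, 77.5 with the stricter filter, 62.9 with each cell classed by its own marker score, 87.6 with free RNA subtracted, 78.1 in clusters with little free RNA, 71.9 at 2000 UMIs per cell, 77.4 with the added clusters and 66.4 without the highest cells. The median log2 ratio of the 6 receptors was 0.76 in macrophages and -0.019 at 2000 UMIs per cell. At that depth 6 NCD and 3 HFD macrophages had an Itgb3 UMI. In progenitors the median was 0.25, and 0.43 under median-of-ratios scaling, which moved all progenitor ratios by 0.18. Of the 10 genes most like Spp1, 5 remained with a pseudocount of 1 CPM and 4 with Spearman's correlation. The Cd44 ratio in macrophages turned from 0.33 to -0.31 with the added clusters. The causes were not tested. Over 13 alternatives the macrophage log2 ratios ranged from 1.62 to 2.06 for Itgav, 1.33 to 1.65 for Itgb5 and -1.12 to -0.54 for Itga4. Setting a count of 0 to 1 in place of 3 had no effect on Spp1 in macrophages, which had 22 NCD UMIs. Depth limits Itgb3 in macrophages and all receptors in classes of about 50 cells. No paired analysis was possible because each diet has 1 library.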
